A study of Mus musculus with 8 samples.

Results

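The 6 matrix metalloproteinase genes Mmp2, Mmp3, Mmp9, Mmp12, Mmp13 and Mmp14 and the 4 tissue inhibitor genes Timp1, Timp2, Timp3 and Timp4 were examined in mouse aorta, as 10 genes out of 48607 loci in the deposited table. They were picked by gene name, and where a name stood on several loci the locus with the most reads over the 8 libraries was used. Matrix metalloproteinases are zinc-dependent enzymes that cut collagens, elastin, proteoglycans and other matrix proteins. Most are secreted as inactive proenzymes that must lose a prodomain before they work, and tissue inhibitors of metalloproteinases (TIMPs) bind the active enzymes and block them. In atherosclerotic plaques these enzymes come mainly from macrophages and vascular smooth muscle cells and are known for weakening the fibrous cap.

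Whole aortas of mice were sequenced as poly(A) RNA after a Western diet of 12 weeks. All mice carried ApoE-/-, the deletion of apolipoprotein E that raises plasma cholesterol and gives plaques, and the question was what the added loss of natriuretic peptide receptor C (NPRC, encoded by Npr3) does to the vessel. NPRC-/-ApoE-/- mice came from a cross with mice that had a CRISPR frameshift in exon 1 of Npr3 in every tissue, made on C57BL/6, so that the deletion was not restricted to a vascular cell type, and ApoE-/- littermates were the controls. By title, 5 libraries were ApoE-/- and 3 were NPRC-/-ApoE-/-, but the genotype entry of the same samples named the other genotype for 4 of the 8. The libraries titled ApoE-/- 4 and 5 were entered as Nprc-/-Apoe-/-, and those titled NPRC-/-ApoE-/- 1 and 2 were entered as Apoe-/-. Groups were therefore formed by title, and each result was repeated by genotype entry, which also gives 5 against 3 libraries.

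The total count was between 62969165 and 86693276 per library. By title, Npr3 stood at 0.62 to 1.69 FPKM (mapped fragments per kilobase of a transcript, divided by library depth) with ApoE-/- alone and at 1.13 to 1.39 FPKM in NPRC-/-ApoE-/-, a log2 fold change of 0.10 ± 0.28 (standard error) by title and 0.16 ± 0.28 by genotype entry. A count of the whole locus does not test for a frameshift, so this level does not tell which label is right. Summed smooth muscle markers stood at 5745 to 13780 CPM (counts scaled to library size). None of the 10 smooth muscle, macrophage, fibroblast or endothelial markers of each list was at 0 counts over the 8 libraries. This held also for the skeletal muscle, cardiomyocyte, cartilage and B cell lists, so it does not tell which tissue was sequenced. All p-values below come from edgeR's quasi-likelihood test over the 20506 loci that reached 1 FPKM in 3 or more libraries, with Benjamini-Hochberg adjustment over all of them, and all 10 genes passed that filter. Fold changes are NPRC-/-ApoE-/- relative to ApoE-/-. Each library is described as the aorta of a separate mouse, and the labels name no batch.

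The promoters are shown first, because Mmp3, Mmp12 and Mmp13 lie close together on chromosome 9 and share short motifs in their promoters. In GRCm38 with the GENCODE M21 annotation, 10 Mmp genes follow each other on chromosome 9, from Mmp13 (7272514 to 7283331) over Mmp12 (7344381 to 7369499), Mmp1b, Mmp3 (7445822 to 7455975), Mmp1a, Mmp10, Mmp8, Mmp27 and Mmp20 to Mmp7 (7692090 to 7699585). Mmp12, Mmp13 and Mmp3 had medians of 18.8, 3.92 and 75.0 FPKM over the 8 libraries, while Mmp1a, Mmp1b and Mmp7 had a median of 0 FPKM and Mmp10 of 0.07 FPKM. Mmp8 and Mmp27 stood at 0.73 and 1.15 FPKM. Windows of 250 bases before to 50 bases after the RefSeq start site (GRCm38.p6) were at hand for 8 of the 10 genes, with 2 windows for Mmp12. Mmp2 and Mmp9 had no window. They were searched on both strands for TGAGTCA, the motif bound by the Fos and Jun dimers of AP-1. The GC box was searched as GGGCGG, also on both strands. The letters TATAAA, the core of a TATA box, were searched on the strand of the gene. The stretches below hold 100 bases before the start site and the 20 bases from it on, 5′ to 3′ on the strand of the gene, with matches to the 3 motifs in capitals.
Mmp3, chr9:7445722-7445841, plus strand: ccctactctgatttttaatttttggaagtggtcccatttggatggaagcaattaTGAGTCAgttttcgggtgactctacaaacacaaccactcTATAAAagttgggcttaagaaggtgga
Mmp12, chr9:7347274-7347393, plus strand: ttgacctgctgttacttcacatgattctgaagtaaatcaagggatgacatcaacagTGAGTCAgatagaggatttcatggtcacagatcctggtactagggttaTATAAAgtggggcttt
Mmp13, chr9:7272414-7272533, plus strand: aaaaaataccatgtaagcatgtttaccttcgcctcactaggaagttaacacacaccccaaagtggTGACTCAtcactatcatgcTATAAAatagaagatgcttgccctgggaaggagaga
Mmp14, chr14:54431498-54431617, plus strand: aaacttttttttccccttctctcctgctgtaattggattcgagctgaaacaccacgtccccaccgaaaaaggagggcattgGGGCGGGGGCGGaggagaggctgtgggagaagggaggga
Timp1, chrX:20870066-20870185, plus strand: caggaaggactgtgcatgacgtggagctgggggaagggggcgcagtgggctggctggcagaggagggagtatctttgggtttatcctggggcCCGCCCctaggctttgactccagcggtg
Timp4, chr6:115252186-115252305, minus strand: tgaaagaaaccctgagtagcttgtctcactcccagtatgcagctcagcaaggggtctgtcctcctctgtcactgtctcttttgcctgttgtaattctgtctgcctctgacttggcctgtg

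The AP-1 motif and the letters TATAAA were both found in the windows of Mmp3, Mmp13 and the downstream window of Mmp12, and in no window of the other 5 genes that had one. Only the exact letters were counted, so variants of the motif were missed. The Timp1 window, for example, holds the letters TGAGTAA behind its start site. These matches therefore do not tell which genes lack an AP-1 site. Counted from the start site, which is position 0, the AP-1 motif began at -46 in Mmp3, at -44 in Mmp12 and at -35 in Mmp13, where it read on the opposite strand. The letters TATAAA stood from -16 to -11 in Mmp13, from -7 to -2 in Mmp3 and from 4 to 9 in Mmp12, there inside the transcript as RefSeq starts it. Of the 32851 promoter windows in the RefSeq table, 5.20% held the AP-1 motif and 8.32% the letters TATAAA. GC boxes were found in the windows of Mmp14, Timp1, Timp2 and Timp3, and 35.7% of all windows held at least 1. In Mmp14 a pair of GC boxes lay directly behind each other from -19 to -8. The upstream window of Mmp12 (chr9:7344147-7344446) and the window of Timp4 held none of the 3 motifs. GC content ranged from 38.7% in the upstream window of Mmp12 to 68.7% in Timp2, against a median of 52.7% over all windows.

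Per length of transcript, Timp2 was the highest of the 10 genes with a median of 151 FPKM over the 8 libraries, followed by Mmp3 with 75.0, Mmp2 with 35.9, Timp1 with 35.1, Timp3 with 31.0, Mmp12 with 18.8, Mmp14 with 13.3, Mmp13 with 3.92, Timp4 with 2.44 and Mmp9 with 1.02 FPKM. Timp2 stood above Mmp3 and Mmp3 above Mmp2 in 8 of 8 libraries, although the ranges over the libraries overlapped in each neighbouring pair of this order. Mmp2, Timp1 and Timp3 were not separated in order, since Mmp2 exceeded Timp1 in 5 libraries and Timp1 exceeded Timp3 in 3. The spread over the 8 libraries differed widely between genes. The highest library was 76.6 times the lowest for Mmp13 and 6.81 times for Mmp3, but 2.07 times for Timp3 and 1.86 times for Timp2.

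**Figure D1:**
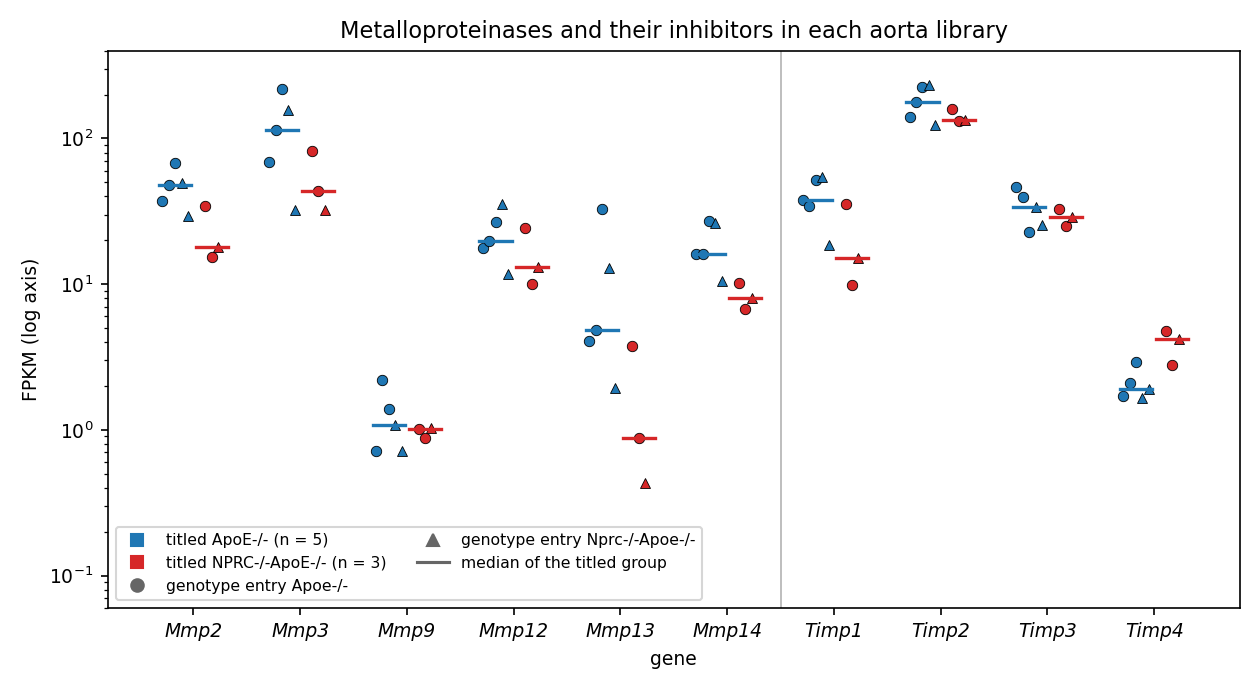
FPKM of the 6 metalloproteinase and 4 inhibitor genes (x axis) on a log axis, with 1 point per library, coloured by title and shaped by genotype entry, and lines at the medians of the titled groups. Mmp13 spread from 0.43 to 32.93 FPKM, Timp2 only from 124 to 231 FPKM, and only for Mmp14 did all points of the 2 titled groups stand apart.

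By title, all 6 metalloproteinase genes and 3 of the 4 inhibitor genes had lower fitted levels in NPRC-/-ApoE-/- aortas, and Timp4 had a higher level. Mmp2, Mmp13 and Mmp14 met the criterion of the study, a level more than 2 times or less than 0.5 times that of ApoE-/- together with an unadjusted p under 0.05, which 3.47% of all tested loci met. With Timp4, 4 of the 10 genes had an unadjusted p under 0.05, against 13.6% of all loci. By edgeR's quasi-likelihood test 0 of the 10 had an adjusted p under 0.05, as did 0.0% of all loci. Lower levels were found for 9 of the 10 genes, against 50.9% of all loci. By genotype entry the 10 genes met the criterion 0 times (0.463% of all loci) and had an unadjusted p under 0.05 also 0 times (1.31% of all loci), with 0.0% of all loci past an adjusted p of 0.05. Lower levels were again found for 9 of 10 (51.0% of all loci), but the gene with a higher level was then Mmp12 and not Timp4, and this count was 7 with median-ratio scaling, 3 without ApoE-/- 3 and 4 without ApoE-/- 5. The 9 included Timp2 and Mmp14, whose log2 fold changes by genotype entry were only -0.0002 ± 0.30 and -0.0043 ± 0.52 (standard error). By title 9 genes had lower levels whichever library was left out, and the count meeting the criterion was 5 without ApoE-/- 5 and 1 without NPRC-/-ApoE-/- 3. The whole table shifted too, with 1066 of 19877 loci meeting it without ApoE-/- 5 and 384 of 20016 without NPRC-/-ApoE-/- 3, against 712 of 20506 with all libraries. On the log2 CPM scale, the groups overlapped for each of the 10 genes under both labels, while they did not overlap for 7.41% of all loci by title and 1.20% by genotype entry. The median log2 fold change of the 6 metalloproteinase genes was -1.12 by title and -0.33 by genotype entry, that of the 4 inhibitor genes was -0.26 and -0.11, and over all loci it was -0.0062 and -0.0038.

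**Figure D2:**
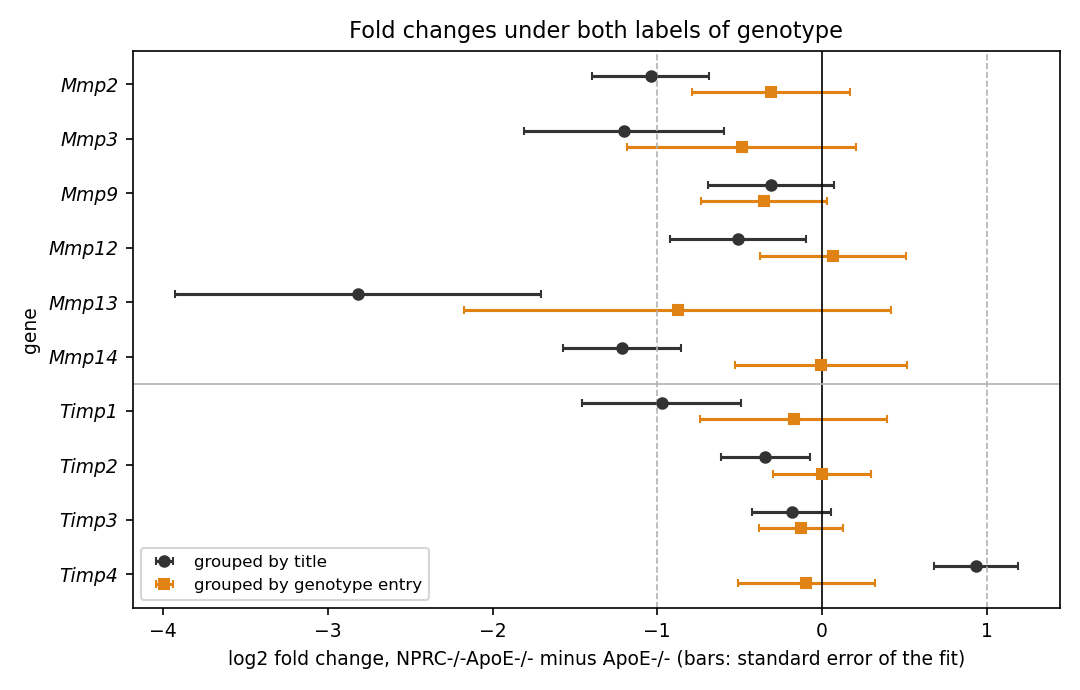
Log2 fold change of each gene (y axis) in NPRC-/-ApoE-/- relative to ApoE-/- aortas, with the standard error of the edgeR fit, grouped by title (circles) and by genotype entry (squares), and dashed lines at 2-fold. Mmp13 at -2.82, Mmp14 at -1.21, Mmp3 at -1.20 and Mmp2 at -1.04 lie past 2-fold by title, and no gene does by genotype entry.

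Mmp2 (ENSMUSG00000031740, chromosome 8) and Mmp9 (ENSMUSG00000017737, chromosome 2) encode the gelatinases, which degrade denatured collagen and basement membrane collagen. In the ApoE-/- libraries 1 to 5, Mmp2 was at 37.36, 47.83, 67.55, 49.15 and 29.48 FPKM, and in the NPRC-/-ApoE-/- libraries 1 to 3 at 34.40, 15.37 and 17.98 FPKM. NPRC-/-ApoE-/- 2 and 3 stood below every other library, while NPRC-/-ApoE-/- 1 stood above ApoE-/- 5, so the titled groups overlapped. The means were 46.3 ± 14.4 FPKM (SD, n = 5) and 22.6 ± 10.3 FPKM (SD, n = 3), a log2 fold change of -1.04 ± 0.36 (standard error) with an edgeR p of 0.0173 and an adjusted p of 0.309. Without NPRC-/-ApoE-/- 2 the edgeR p of Mmp2 was 0.0695, without NPRC-/-ApoE-/- 3 it was 0.0631, and without ApoE-/- 3 the log2 fold change was -0.83. By genotype entry it was -0.31 ± 0.48.

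Mmp9 was the lowest of the 10 genes, with 235 to 631 counts per library. It was at 0.72, 2.21, 1.38, 1.08 and 0.71 FPKM in ApoE-/- 1 to 5 and at 1.01, 0.88 and 1.03 FPKM in NPRC-/-ApoE-/- 1 to 3. The NPRC-/-ApoE-/- libraries lay inside the range of the ApoE-/- libraries. Its log2 fold change was -0.31 ± 0.38 by title (edgeR adjusted p = 0.743) and -0.35 ± 0.38 by genotype entry.

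Mmp3 (ENSMUSG00000043613) encodes stromelysin 1, which cuts proteoglycans, fibronectin and laminin and can activate other proenzymes of the family. It carried the largest part of the summed FPKM of the 6 metalloproteinase genes in every library, between 37.2% and 58.4%. In ApoE-/- 1 to 5 it was at 68.45, 113.46, 219.04, 155.82 and 32.17 FPKM, and in NPRC-/-ApoE-/- 1 to 3 at 81.64, 43.48 and 32.22 FPKM. The lowest library was ApoE-/- 5, and the NPRC-/-ApoE-/- libraries lay inside the ApoE-/- range. The log2 fold change of -1.20 ± 0.61 had an edgeR p of 0.0800 and an adjusted p of 0.415. Without ApoE-/- 5 it was -1.44 with an edgeR p of 0.0139, without ApoE-/- 3 it was -0.82 with an edgeR p of 0.175 and without NPRC-/-ApoE-/- 3 it was -0.94 with an edgeR p of 0.217. By genotype entry it was -0.49 ± 0.70, and it ranged from -1.73 without ApoE-/- 4 (edgeR p of 0.0255) to 0.03 without ApoE-/- 3 (edgeR p of 0.963).

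Mmp12 (ENSMUSG00000049723) encodes macrophage elastase, which degrades elastin and is made chiefly by macrophages. Its levels were 17.82, 19.79, 26.76, 35.32 and 11.75 FPKM in ApoE-/- 1 to 5 and 24.24, 10.00 and 13.03 FPKM in NPRC-/-ApoE-/- 1 to 3. ApoE-/- 4 was highest and NPRC-/-ApoE-/- 2 lowest, but NPRC-/-ApoE-/- 1 stood above 3 of the ApoE-/- libraries and the groups overlapped. The log2 fold change was -0.51 ± 0.41 by title (edgeR adjusted p = 0.598) and 0.07 ± 0.44 by genotype entry. Its last bases overlap Mmp1b on the other strand, of which 3 counts were found over all 8 libraries.

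Mmp13 (ENSMUSG00000050578) encodes collagenase 3, the main enzyme in mice that cuts intact fibrillar collagen. It varied most of the 10 genes, at 4.09, 4.82, 32.93, 12.86 and 1.94 FPKM in ApoE-/- 1 to 5 and at 3.75, 0.88 and 0.43 FPKM in NPRC-/-ApoE-/- 1 to 3. ApoE-/- 3 stood far above ApoE-/- 4, the next library, and NPRC-/-ApoE-/- 1 lay above ApoE-/- 5. The SD of 12.8 FPKM in ApoE-/- exceeded the mean of 11.3 FPKM (n = 5), against 1.69 ± 1.80 FPKM (SD, n = 3) in NPRC-/-ApoE-/-. The log2 fold change was -2.82 ± 1.11 by title with an edgeR p of 0.0322 and an adjusted p of 0.329, and -0.88 ± 1.30 by genotype entry. Without ApoE-/- 3 it was -1.84 with an edgeR p of 0.0680, without NPRC-/-ApoE-/- 2 it was -2.48 with an edgeR p of 0.0966 and without NPRC-/-ApoE-/- 3 it was -2.34 with an edgeR p of 0.0939, while without NPRC-/-ApoE-/- 1 it was -4.15. By genotype entry its sign turned when a single library was left out, with a range of -3.08 to 0.68.

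Mmp14 (ENSMUSG00000000957, chromosome 14) encodes a metalloproteinase anchored in the cell membrane, which cuts collagen at the cell surface and activates pro-MMP2. It was at 16.12, 16.22, 27.14, 26.34 and 10.47 FPKM in ApoE-/- 1 to 5 and at 10.21, 6.79 and 8.01 FPKM in NPRC-/-ApoE-/- 1 to 3. This was the only one of the 10 genes whose titled groups did not overlap in FPKM, by a margin of 10.47 against 10.21, and on the log2 CPM scale the same libraries were at 6.56 and 6.59 and did overlap. The means were 19.3 ± 7.22 FPKM (SD, n = 5) and 8.34 ± 1.73 FPKM (SD, n = 3). The log2 fold change was -1.21 ± 0.36, a level 2.32 times higher in ApoE-/-, with an edgeR p of 0.00805 and an adjusted p of 0.272. It met the criterion in each of the 8 fits that left out a library, with values from -1.38 to -1.03. By genotype entry the means were 15.3 ± 7.75 FPKM (SD, n = 5) and 14.9 ± 9.95 FPKM (SD, n = 3), and the log2 fold change was -0.0043 ± 0.52.

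Of the 4 inhibitor genes, 3 had lower and 1 a higher fitted level by title, none with an adjusted p under 0.05. Timp1 (ENSMUSG00000001131), an inhibitor of most secreted metalloproteinases that many cells make under cytokine stimulation, was at 38.04, 34.55, 51.92, 54.50 and 18.44 FPKM in ApoE-/- 1 to 5 and at 35.69, 9.90 and 15.21 FPKM in NPRC-/-ApoE-/- 1 to 3. NPRC-/-ApoE-/- 2 and 3 were the lowest libraries and NPRC-/-ApoE-/- 1 lay among the ApoE-/- libraries. The log2 fold change was -0.97 ± 0.48 with an edgeR p of 0.0741 (adjusted p = 0.409), and -0.17 ± 0.57 by genotype entry. When a library was left out the value ranged from -1.62 without NPRC-/-ApoE-/- 1 (edgeR p of 0.00917) to -0.62 without NPRC-/-ApoE-/- 2 (edgeR p of 0.230), and it was -1.16 without ApoE-/- 5 (edgeR p of 0.0246) and -0.81 without NPRC-/-ApoE-/- 3 (edgeR p of 0.193).

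Timp2 (ENSMUSG00000017466), the inhibitor that also links pro-MMP2 to MMP14 at the cell surface, made up 62.1% to 77.7% of the summed FPKM of the inhibitor genes. It was at 141.46, 176.82, 227.01, 231.12 and 124.13 FPKM in ApoE-/- 1 to 5 and at 159.69, 131.19 and 134.31 FPKM in NPRC-/-ApoE-/- 1 to 3. The NPRC-/-ApoE-/- libraries lay inside the ApoE-/- range, with a log2 fold change of -0.34 ± 0.27 (edgeR adjusted p = 0.582), and by genotype entry the means were 167 ± 37.7 FPKM (SD, n = 5) and 163 ± 59.1 FPKM (SD, n = 3). Timp3 (ENSMUSG00000020044), the inhibitor that is bound to the matrix and also blocks ADAM proteases, was at 46.75, 39.45, 22.63, 33.59 and 25.62 FPKM in ApoE-/- 1 to 5 and at 32.82, 25.03 and 29.11 FPKM in NPRC-/-ApoE-/- 1 to 3. It was the only gene of the 10 besides Timp4 in which ApoE-/- 3 was not among the 2 highest libraries, and there it was the lowest. Its log2 fold change was -0.18 ± 0.24 by title (edgeR adjusted p = 0.759) and -0.13 ± 0.25 by genotype entry.

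Timp4 (ENSMUSG00000030317), an inhibitor known mainly from heart and vessels, had the opposite order. It was at 1.72, 2.11, 2.94, 1.65 and 1.91 FPKM in ApoE-/- 1 to 5 and at 4.74, 2.77 and 4.23 FPKM in NPRC-/-ApoE-/- 1 to 3. NPRC-/-ApoE-/- 1 and 3 were the highest libraries, and NPRC-/-ApoE-/- 2 lay below ApoE-/- 3. The means were 2.07 ± 0.52 FPKM (SD, n = 5) and 3.91 ± 1.02 FPKM (SD, n = 3), a log2 fold change of 0.93 ± 0.25, or 1.91-fold, with an edgeR p of 0.00508 and an adjusted p of 0.255. Its unadjusted p stayed under 0.05 in each of the 8 fits that left out a library, with log2 fold changes from 0.80 to 1.17. By genotype entry it was -0.09 ± 0.41.

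**Figure D3:**
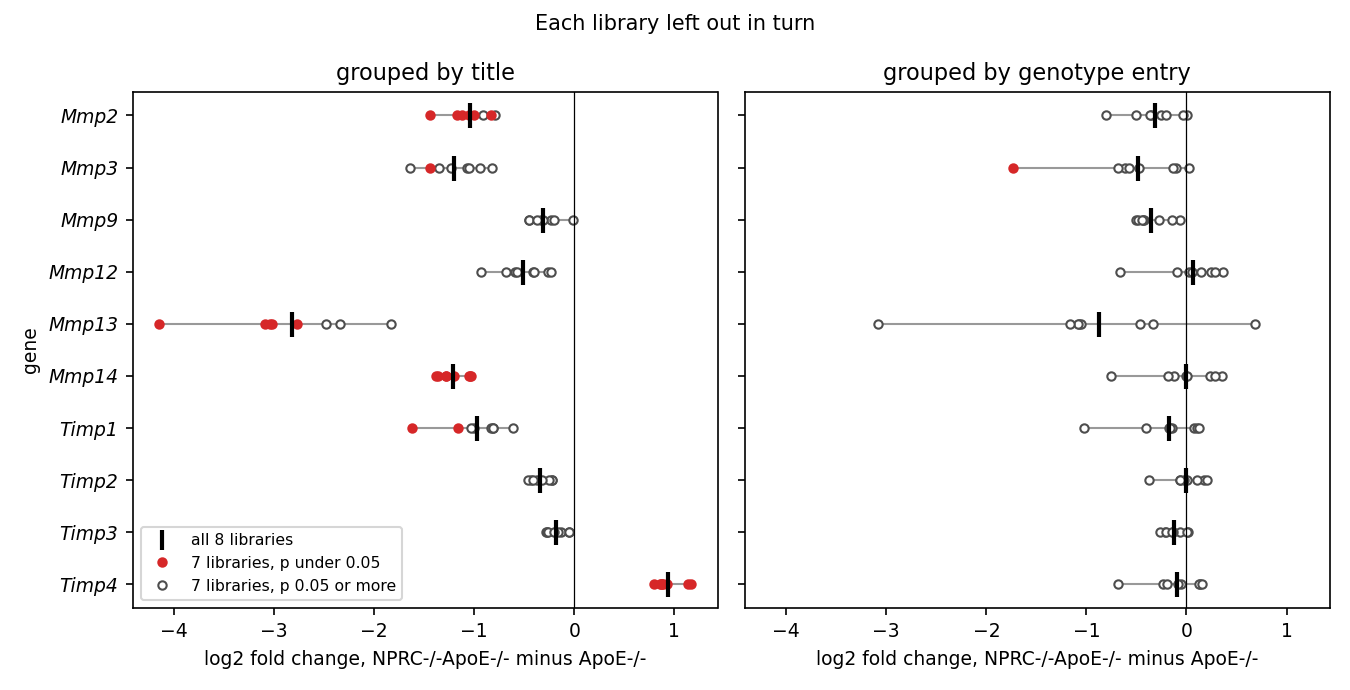
Log2 fold change of each gene with all 8 libraries (bars) and with each library left out in turn (points), grouped by title (left) and by genotype entry (right), filled where the unadjusted edgeR p was under 0.05. Mmp14 and Timp4 keep filled points in 8 of 8 fits by title, and by genotype entry only Mmp3 has 1 filled point.

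Several of the inhibitor loci share ground with other genes, and the sources used here do not say whether counting used strand. Timp1 lies inside Syn1 (synapsin 1), Timp3 inside Syn3 and Timp4 inside Syn2, each on the opposite strand, and Cep295nl lies inside Timp2 on the same strand. Exons shared 0 bases for Timp1 with Syn1 and for Timp2 with Cep295nl, 1733 bases for Timp3 with Syn3 and 90 bases for Timp4 with Syn2. The counts of Syn2 were 27.7% of those of Timp4 and the counts of Syn1 were 16.6% of those of Timp1, against 0.87% for Syn3 with Timp3 and 1.11% for Cep295nl with Timp2. Syn2 had 0.30 to 1.76 FPKM in ApoE-/- and 0.22 to 0.28 FPKM in NPRC-/-ApoE-/- by title, the opposite order to Timp4, and with Syn3 it did not pass the filter on low values. Syn1 had 1.25 to 2.70 FPKM in ApoE-/- and 0.80 to 0.99 FPKM in NPRC-/-ApoE-/-, with a log2 fold change of -1.01 ± 0.29, an edgeR p of 0.00653 and an adjusted p of 0.266, and its titled groups did not overlap. By genotype entry the log2 fold change of Syn1 was -0.11 ± 0.43 with an edgeR p of 0.802. Cep295nl had a log2 fold change of 0.15 ± 0.23.

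The libraries within each titled group differed in the same way over most of the 10 genes. ApoE-/- 3 was among the 2 highest libraries for 6 of the 6 metalloproteinase genes and ApoE-/- 4 for 5, while NPRC-/-ApoE-/- 2 was among the 3 lowest for 6, and ApoE-/- 5 and NPRC-/-ApoE-/- 3 for 5 each. Since ApoE-/- 4 and 5 stood at opposite ends and carry the same genotype entry, the group entered as Nprc-/-Apoe-/- held high and low libraries alike. Timp1 and Timp2 were also highest in ApoE-/- 4 and 3, in that order.

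**Figure D4:**
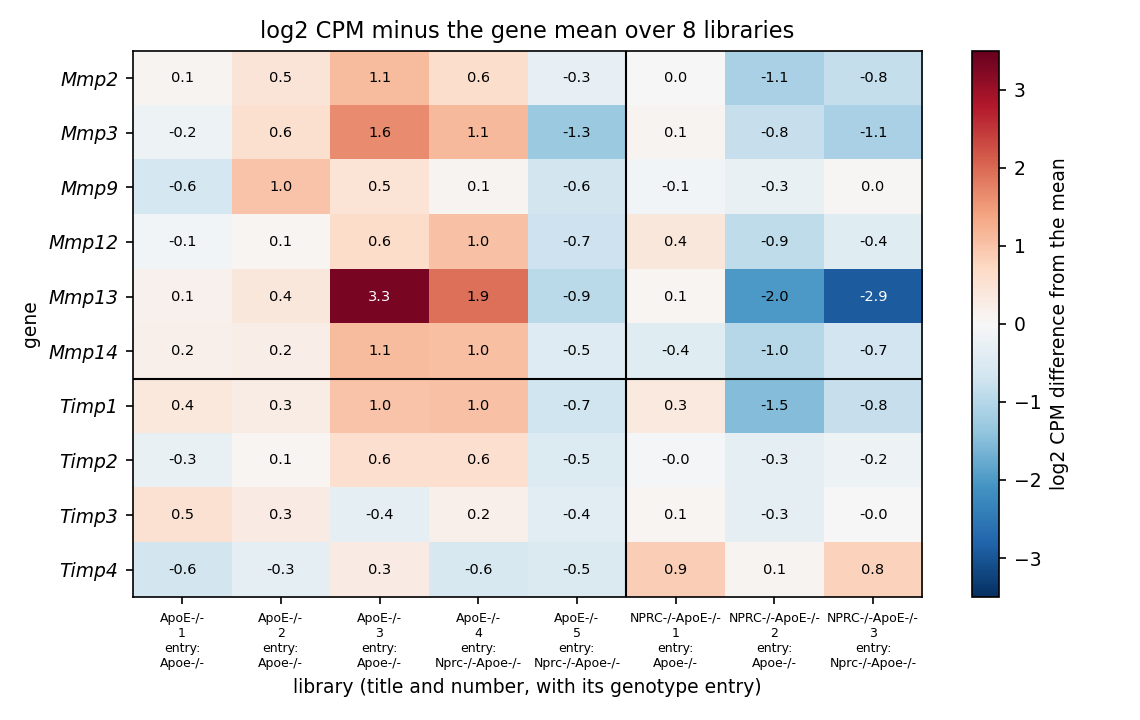
Log2 CPM of each gene (rows) in each library (columns) minus the mean of that gene over the 8 libraries, with titles and genotype entries below the columns. ApoE-/- 3 and 4 lie above the mean for all 6 metalloproteinase genes, although Mmp9 in ApoE-/- 4 does so only slightly. Timp4 lies above its mean in ApoE-/- 3 and in the 3 NPRC-/-ApoE-/- libraries, in NPRC-/-ApoE-/- 2 only slightly.

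Summed over the 6 metalloproteinase genes and divided by the sum over the 4 inhibitor genes, FPKM gave ratios of 0.634, 0.808, 1.23, 0.874 and 0.509 in ApoE-/- 1 to 5 and 0.666, 0.458 and 0.398 in NPRC-/-ApoE-/- 1 to 3. ApoE-/- 3 was the only library with more metalloproteinase than inhibitor FPKM, and the titled groups overlapped. The ratio of Timp2 to Mmp14, the inhibitor and the membrane enzyme that meet on pro-MMP2, was 8.78, 10.9, 8.36, 8.77 and 11.9 in ApoE-/- 1 to 5 and 15.6, 19.3 and 16.8 in NPRC-/-ApoE-/- 1 to 3. The titled groups did not overlap in this ratio, and by genotype entry they did. The ratio was chosen with the levels of both genes known and is given without a test. How many other pairs of genes separate in this way was not counted. Timp1 to Mmp14 was 1.76 to 2.36 in ApoE-/- and 3.5, 1.46 and 1.9 in NPRC-/-ApoE-/-, so that these groups overlapped.

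**Figure D5:**
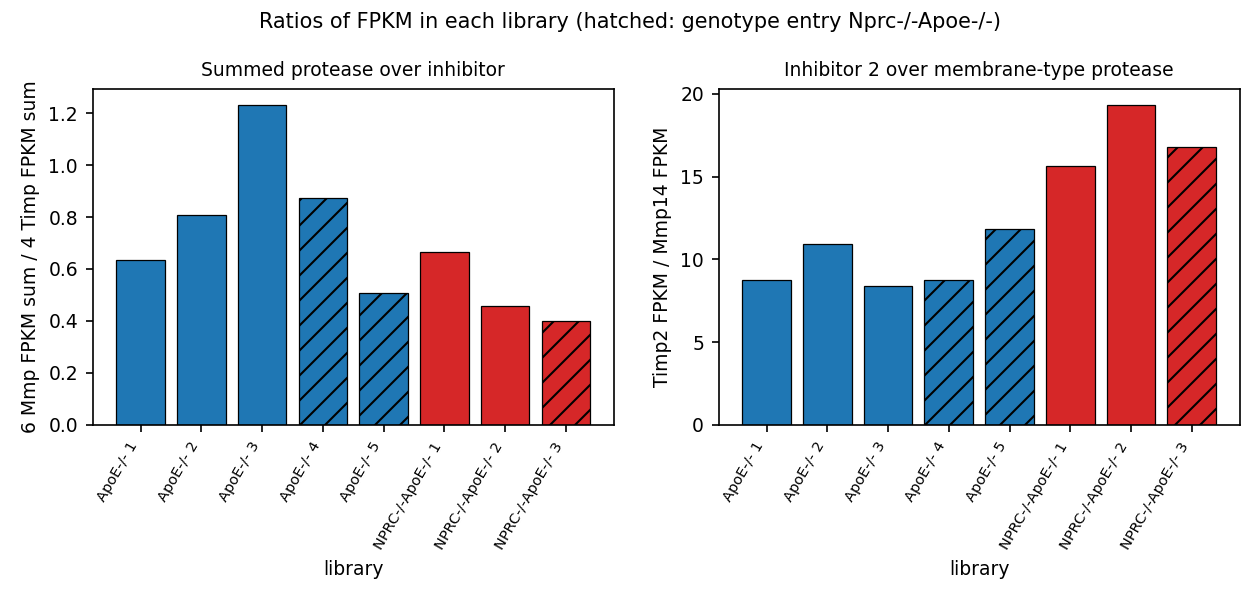
FPKM of the 6 metalloproteinase genes over the 4 inhibitor genes (left) and of Timp2 over Mmp14 (right) in each library, with colour by title and hatching for libraries entered as Nprc-/-Apoe-/-. The right panel separates the titled groups, at 8.36 to 11.9 against 15.6 to 19.3, and the left panel does not. The ratio on the right was chosen with the levels of both genes known and was not tested.

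Macrophage and fibroblast markers were highest in ApoE-/- 3 and 4, which were also the highest libraries for most metalloproteinase genes, while smooth muscle markers were highest in NPRC-/-ApoE-/- 2 and 3. Sums were taken over the markers with a locus of their own, 8 of 10 for macrophages, 7 for fibroblasts and 8 for smooth muscle. There were 9 each for endothelium, T cells, skeletal muscle, white adipocytes and brown fat. The summed level of the macrophage markers was 3309, 3434, 6865, 6694 and 2169 CPM in ApoE-/- 1 to 5 and 3045, 1577 and 1339 CPM in NPRC-/-ApoE-/- 1 to 3. Fibroblast markers summed to 3863 to 10320 CPM in ApoE-/- and 2683 to 5036 CPM in NPRC-/-ApoE-/-, again highest in ApoE-/- 3 and 4. Each sum weighs its markers by their counts. Over the 8 libraries, Gpnmb and Lyz2 had 1134328 and 802760 counts, and Csf1r, the next in the macrophage sum, had 110018. In the fibroblast sum, Col1a1 had 2074461 counts and Gsn, the next, had 527210. Smooth muscle markers summed to 5745 to 7647 CPM in ApoE-/- and 7306 to 13780 CPM in NPRC-/-ApoE-/-, and endothelial markers to 1280 to 1524 CPM and 1326 to 1390 CPM. T cell markers summed to 68.8, 83.0, 94.5, 116 and 58.8 CPM in ApoE-/- 1 to 5 and to 65.1, 27.5 and 33.9 CPM in NPRC-/-ApoE-/- 1 to 3, again highest in ApoE-/- 4 and 3. Skeletal muscle markers summed to 35.2, 4.98, 5.32, 3.45 and 46.9 CPM in ApoE-/- 1 to 5 and to 42.0, 43.3 and 31.9 CPM in NPRC-/-ApoE-/- 1 to 3, so that ApoE-/- 2, 3 and 4 stood below the other 5 libraries. White adipocyte markers summed to 800 to 2535 CPM in ApoE-/- and 1124 to 1709 CPM in NPRC-/-ApoE-/-. Brown fat markers summed to 287 to 1069 CPM and 785 to 1060 CPM, and were lowest in ApoE-/- 3 (287 CPM) and 4 (497 CPM). By title, 9 of 10 macrophage and 10 of 10 fibroblast markers had lower levels and 10 of 10 smooth muscle markers higher levels, of which 4, 2 and 9 had an unadjusted edgeR p under 0.05 (13.6% of all loci) and 0 an adjusted p under 0.05. By genotype entry 0 of these markers had an unadjusted p under 0.05, and the median log2 fold changes of the 3 lists were -0.14, -0.10 and 0.17, against -1.02, -0.75 and 0.64 by title. The part of these markers in the results was not tested. In whole aortas, fewer cells of a type and less RNA per cell cannot be told apart.

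The genes whose log2 CPM followed the 10 genes most closely were named by the smallest root mean square difference over the 8 libraries after centring, out of 18467 loci with a single name. For Mmp14 it was Plau (0.127), which encodes the urokinase plasminogen activator, and then Frmd5 (0.135), against a spread of 0.726 for Mmp14 itself. For Mmp3 it was Fn1 (0.193), which encodes fibronectin, and for Mmp13 it was Grem1 (0.580), a secreted antagonist of bone morphogenetic proteins, and Il1b (0.672), which encodes interleukin 1 beta. Mmp2 was followed most closely by Rgs10 (0.094) and Tnfaip8l2 (0.110), Mmp12 by Aprt (0.131) and Selp (0.133), and Timp1 by the receptor genes Il4ra (0.149) and Csf2ra (0.15). Timp2 was closest to 1700017B05Rik (0.064) and Glmp (0.067), Timp3 to Taok3 (0.124) and Timp4 to Gm9770 (0.153) and Dab2ip (0.177). For Mmp9, with a spread of 0.516, the closest gene was Gpn3 at 0.214. The spreads of Mmp2, Mmp3, Mmp12 and Mmp13 were 0.696, 0.998, 0.622 and 1.88. Those of Timp1, Timp2, Timp3 and Timp4 were 0.847, 0.374, 0.31 and 0.567. Each difference is to be read against the spread of its own gene. The 8 libraries share the differences in cell type markers given above, and such closeness is a description of these libraries.

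Other proteases and regulators of the matrix were read from fixed lists, whose counts stand against 50.9% of all loci with lower levels, 13.6% with an unadjusted p under 0.05 and 3.47% meeting the criterion by title. Of 17 other metalloproteinase genes, 16 were in the table and 9 passed the filter on low values, of which 6 had lower and 3 higher levels by title. Of these 9, 2 had an unadjusted edgeR p under 0.05, 1 lower and 1 higher, and 0 had an adjusted p under 0.05. Mmp27 met the criterion, at 1.14 to 1.67 FPKM in ApoE-/- and 0.42 to 1.14 FPKM in NPRC-/-ApoE-/-, and had a log2 fold change of -1.05 ± 0.34, with an edgeR p of 0.0136 and an adjusted p of 0.290. Of 18 ADAM and ADAMTS proteases, 17 were tested, 13 had lower levels and 4 had an unadjusted p under 0.05, 3 lower and 1 higher. Adamts4, an aggrecanase, met the criterion, with 0.89 to 3.38 FPKM in ApoE-/- and 0.30 to 1.17 FPKM in NPRC-/-ApoE-/-, and had a log2 fold change of -1.60 ± 0.56, with an edgeR p of 0.0191 and an adjusted p of 0.309. Of 19 activators and other regulators, 16 were tested, 11 had lower levels and 3 had an unadjusted p under 0.05, 2 lower and 1 higher. Plau met the criterion, with 8.68 to 24.63 FPKM in ApoE-/- and 5.68 to 10.44 FPKM in NPRC-/-ApoE-/-, and had a log2 fold change of -1.14 ± 0.40, with an edgeR p of 0.0185 and an adjusted p of 0.309. The higher genes with an unadjusted p under 0.05 were Mmp17, Adam33 and Reck, and none of them met the criterion. Their log2 fold changes by title were 0.64 ± 0.20 (edgeR p of 0.0102), 0.60 ± 0.20 (edgeR p of 0.0142) and 0.42 ± 0.13 (edgeR p of 0.012). The adjusted p-values were 0.285, 0.29 and 0.288. Adamts5, Adam19 and Cd63 were lower with an unadjusted p under 0.05 without meeting the criterion. Their log2 fold changes by title were -0.68 ± 0.19 (edgeR p of 0.00596), -0.49 ± 0.17 (edgeR p of 0.0215) and -0.85 ± 0.34 (edgeR p of 0.0345). For these genes the adjusted p-values were 0.259, 0.312 and 0.333. By genotype entry, 0 genes of these 3 lists had an unadjusted p under 0.05. The median log2 fold changes of the 3 lists were -0.20, -0.28 and -0.40 by title and -0.05, -0.03 and -0.03 by genotype entry.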

How the data were processed

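RNA-seq of 8 whole mouse aortas was read from a table of 48607 loci that the authors made by trimming (cutadapt 1.9 and FastQC per the labels), mapping to GRCm38 with HISAT2 and assembly with StringTie. The authors deposited whole-number counts per locus without normalization, and FPKM normalized to transcript length and mapped fragments. How counts were derived and whether strand was used are not given in the sources used here. The library was prepared with a strand-marking method. The table had 0 columns without a sample. Loci without a gene name held 0.607% of the counts, and 1710 loci carried more than 1 name.

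Counts were tested with edgeR 4.0.16 in R 4.3.3 (TMM, trended dispersion, quasi-likelihood), on loci that reached 1 FPKM in 3 or more libraries. The biological coefficient of variation was 0.327, and the number of libraries limits the precision. In simulated data for the comparison by title (20506 loci, 200 changed 4-fold), 82.5% of the changed loci had an adjusted p under 0.05. Loci were drawn independently there, and smaller changes were not simulated. The share therefore does not carry over to 2-fold changes, or to libraries that differ together over many genes. log2 CPM used a prior count of 2. No pair of libraries agreed within sampling noise (smallest mean chi-square per locus 101). Alternatives were the genotype entry, the 4 libraries with agreeing labels, limma 3.58.1 on log2(FPKM + 1) and log2(FPKM + 0.1), DESeq2 1.42.0, other filters and scalings, a replicate block, each library left out, and summed loci. The genes, lists and rules were chosen with earlier results of these data known. Named genes are the 10 genes, those nested with inhibitors, the closest followers of each gene and the markers with most counts in marker sums. Genes of the 3 protease and regulator lists were named if they had an unadjusted p under 0.05 by title. Promoter windows came from RefSeq (GRCm38.p6), and motifs were matched letter by letter in Python 3.11.15. Measurements of the study other than sequencing were not analysed here.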

Additional observations from a re-analysis of the deposited data

How the results depend on the processing

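Over the alternatives, the log2 fold changes by title of the 10 genes were computed 198 times, and in 177 the direction and the side of an unadjusted p of 0.05 (or, without a test, the value within its standard error) were as in the edgeR fit. In 9 the p rose past 0.05, in 9 it dropped under 0.05, and in 1, Mmp13 in the 4 libraries with agreeing labels (3 against 1), the value moved to -4.19. The sign turned in 2, both when groups followed the genotype entry, for Mmp12 (0.07) and Timp4 (-0.09). The 177 include values that changed in size while the edgeR p stayed above 0.05. Timp2, for example, was at -0.34 by title and at -0.0002 by genotype entry. They also include the summed loci of genes with a single locus, such as Mmp3, where the fit could hardly change. The count of genes meeting the criterion was 3 by title and 0 by genotype entry. It ranged from 1 (without NPRC-/-ApoE-/- replicate 3) to 5 (without ApoE-/- replicate 5) by title when a library was left out, and from 0 to 1 (without ApoE-/- replicate 4) by genotype entry. Over all loci, the same 2 fits by title had 384 of 20016 and 1066 of 19877 meeting it, and the fit by genotype entry 227 of 20210. Of the 10 genes, 9 had lower levels by title in each of these fits, and by genotype entry 3 (without ApoE-/- replicate 3) or 4 (without ApoE-/- replicate 5) to 10 (without NPRC-/-ApoE-/- replicate 2). The cause of these shifts was not tested. DESeq2 gave adjusted p-values of 0.0303 for Mmp14 and 0.0347 for Timp4 by title and called 627 of 20506 loci, against 0 by edgeR and 0 to 2 by limma. By title, 712 of 20506 loci met the criterion with edgeR, 175 with limma on log2(FPKM + 1) and 662 with limma on log2(FPKM + 0.1). Without a filter 2287 of 44689 loci met it. At a mean of at least 5 FPKM, a filter that Mmp9 and Timp4 did not pass, 114 of 4246 loci met it. Libraries with the same number did not deviate together (correlations -0.31, -0.11 and 0.01, and 0 of 3 were closest to their own number). With the replicate block on 6 libraries Mmp13 had an edgeR p of 0.101 and Timp1 of 0.0321. There 726 of 19502 loci met the criterion, against 810 in the same libraries without the block.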
